A study of Homo sapiens with 6 samples.

Results

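The genes described here are 10 transcription factors and chromatin regulators of the T lineage, BCL11B, TCF7, LEF1, SATB1, TOX, IKZF1, IKZF2, IKZF3, RUNX3 and ZEB1. They were listed by name, and 9 of the 10 were measured among 17687 genes; TCF7 was not analysed here. Each of the 9 had 1 probe set, so no choice between probe sets was needed. The cells were Jurkat cells, an established human line of T-ALL (T cell acute lymphoblastic leukaemia), grown in RPMI with 10% fetal bovine serum. In the 3D group, cells were mixed into bovine type I collagen at 1.7 mg/mL, which set for 1 h and was then covered with warm medium for 2 h. In the suspension group, cells were kept without a gel for the same 3 h. Each group has 3 arrays, called biological replicates and numbered 1 to 3 without a statement of what separates them, so p-values measure the spread between these samples. All arrays come from 1 cell line, and both groups share its leukaemic background.

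These factors act in sequence in the thymus, as worked out mainly in mice. NOTCH signals induce TCF7, an HMG-box protein, which together with GATA3 turns on BCL11B, a zinc finger protein that closes off other blood lineages. LEF1, the close relative of TCF7, binds the same DNA motif, and both can recruit beta-catenin or Groucho/TLE corepressors. SATB1 organises chromatin loops, TOX is an HMG-box factor needed for CD4 lineage development, RUNX3 directs CD8 lineage development, and ZEB1 is a zinc finger repressor. The Ikaros family (IKZF1, IKZF2, IKZF3) consists of zinc finger proteins that pair with each other and bring the NuRD remodelling complex to DNA. BCL11B, IKZF1 and LEF1 are recurrently altered in T-ALL.

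Expression is the deposited log2 value, normalised by the authors with RMA, and a difference is the 3D mean minus the suspension mean, so 1 unit is a doubling. The arrays had medians of 5.55 to 5.64. Of the 13 T cell markers, 12 had a mean above 6, and their median level was 9.35, with CD27 lowest at 4.52 and CD3E highest at 11.32. The median level was 5.14 for B cell, 4.22 for myeloid, 3.42 for NK cell and 4.24 for stromal markers, although CD79A stood at 8.28 and COL1A2 at 7.01. The list medians per array overlapped between groups for T cell markers (9.08 to 9.36 in 3D, 9.06 to 9.37 in suspension) and for each of these 4 lists. Besides those 2 genes, the stromal marker THY1, which T-lineage leukaemia cells can also carry, averaged 6.96 and the NK cell marker NKG7 6.67. THY1 measured 6.81, 6.78 and 6.44 in 3D, against 7.04, 7.35 and 7.34 in suspension, without overlap (difference -0.57 ± 0.17 SE, limma adjusted p 0.399); its part in other results was not tested. With bulk RNA, fewer cells expressing a gene and less RNA per cell cannot be told apart.

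No T lineage factor passed the test fixed for the comparison. Limma called 0 of the 9 at an adjusted p under 0.05, where 0% of all genes were called, and an equal-variance test without moderation also called 0. At an unadjusted p under 0.05 limma counted 2 of the 9, IKZF3 and ZEB1, both higher in 3D, beside 9.87% of all genes in either direction and 5.9% on the higher side. The 3D and suspension arrays did not overlap for 3 of the 9, beside 16.3% of all genes. These were IKZF3 and ZEB1 on the higher side (8.28% of all genes) and RUNX3 on the lower side (8.03%). The median difference of the 9 was -0.036, with 4 higher and 5 lower, and that of all 17687 genes was -0.016, with 8376 higher and 9311 lower. The median of the 9 turned to 0.032, 0.062 and 0.091, with 6 higher and 3 lower, without 3D replicate 2, 3D replicate 3 and suspension replicate 1, and was -0.18 without 3D replicate 1.

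IKZF3, which encodes Aiolos, had the largest difference of the 9. It measured 6.59, 6.35 and 6.01 in 3D replicates 1, 2 and 3, against 5.85, 5.70 and 5.76 in the suspension replicates of the same numbers. Every 3D array lay above every suspension array, and the lowest 3D value was that of replicate 3. The means were 6.32 ± 0.29 in 3D and 5.77 ± 0.08 in suspension (SD, n = 3 each). The difference was 0.55 ± 0.18 (SE), or 1.46-fold, with a 95% interval of 0.15 to 0.94 and a limma adjusted p of 0.405. With an exact two-sided permutation test of its 6 values p was 0.1, and 3 against 3 arrays cannot give a smaller one. The suspension mean lies under 6, the level below which probe sets counted as dim, so IKZF3 reached that level (mean 6.04 over all arrays) through its 3D arrays.

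The other Ikaros genes did not show such a separation. IKZF1, the founding member of the family, measured 9.94, 9.90 and 9.57 in 3D, against 10.20, 9.80 and 9.89 in suspension. The groups overlapped, and the difference was -0.16 ± 0.18 (SE) with a 95% interval of -0.55 to 0.23 and a limma adjusted p of 0.785. It was -0.039 without suspension replicate 1, -0.044 without 3D replicate 3 and -0.24 without suspension replicate 2. IKZF2, which encodes Helios, measured 8.81, 8.55 and 8.45 in 3D, against 8.25, 8.47 and 8.56 in suspension. Its groups overlapped too, and the difference was 0.18 ± 0.17 (SE) with a 95% interval of -0.20 to 0.55 and a limma adjusted p of 0.739. It was 0.072 without 3D replicate 1 and 0.091 without suspension replicate 1.

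The gap between IKZF3 and IKZF1 within each array was compared directly, a comparison picked after the values were seen. IKZF3 minus IKZF1 was -3.34, -3.55 and -3.56 in 3D, against -4.35, -4.10 and -4.13 in suspension. The groups did not overlap, and the gap changed by 0.71 (exact permutation test, p = 0.1, the smallest possible). IKZF3 alone already separated the groups and the pair was picked from these values, so nothing is drawn from that p. The sign and size of the gap itself depend on the probes of each set, so only its change between the groups can be read.

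ZEB1 had the tightest replicates of the 9 in suspension. This repressor of E-box genes measured 9.41, 9.28 and 9.34 in 3D, against 8.93, 8.94 and 8.98 in suspension. All 3D arrays lay above all suspension arrays, and the means were 9.34 ± 0.06 in 3D and 8.95 ± 0.03 in suspension (SD, n = 3 each). The difference was 0.39 ± 0.15 (SE), or 1.31-fold, with a 95% interval of 0.07 to 0.72 and a limma adjusted p of 0.433. The exact permutation test gave p = 0.1. The SE exceeds what these 6 values alone would give because limma shares the spread between genes.

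**Figure D1:**
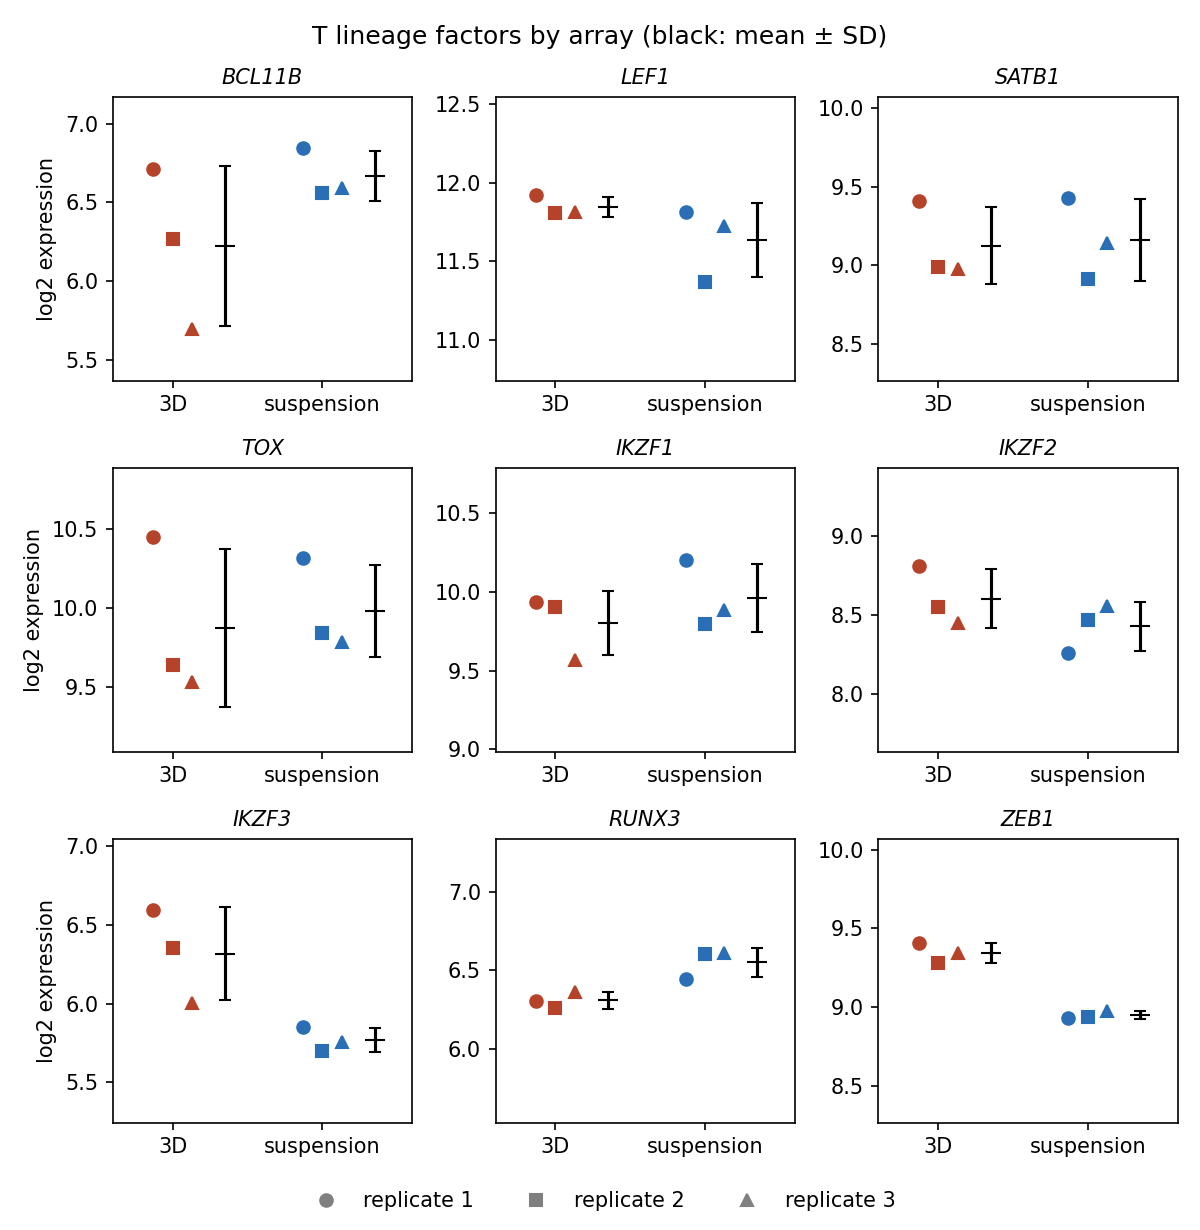
Log2 expression of the 9 measured T lineage factors on each array, with 3D in red and suspension in blue, symbols for the replicate number and black bars for the mean ± SD (n = 3). Every panel spans the same log2 range; IKZF3 and ZEB1 are higher and RUNX3 lower in 3D without overlap, and BCL11B spreads from 5.70 to 6.71 in 3D.

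RUNX3, a Runt-domain factor that represses CD4 in the CD8 lineage, had lower values in 3D. It measured 6.30, 6.26 and 6.36 in 3D, against 6.44, 6.60 and 6.61 in suspension. The groups did not overlap, but the highest 3D array came close to the lowest suspension array. The difference was -0.24 ± 0.15 (SE), with a 95% interval of -0.57 to 0.09, a limma adjusted p of 0.605 and p = 0.1 in the exact permutation test.

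BCL11B had the lowest difference of the 9, and 1 array carried much of it. It measured 6.71, 6.27 and 5.70 in 3D, against 6.85, 6.56 and 6.59 in suspension. The 3D value was lower in each of the 3 replicate numbers, by 0.14, 0.29 and 0.90, but 3D replicate 1 exceeded 2 suspension arrays. The means were 6.22 ± 0.51 in 3D and 6.67 ± 0.16 in suspension (SD, n = 3 each), so the 3D replicates varied more than the groups differed. The difference was -0.44 ± 0.24 (SE), with a 95% interval of -0.97 to 0.08, a limma adjusted p of 0.557 and p = 0.3 in the exact permutation test. It was -0.18 without 3D replicate 3 and -0.68 without 3D replicate 1.

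LEF1 had overlapping groups. It measured 11.92, 11.81 and 11.81 in 3D, against 11.81, 11.37 and 11.73 in suspension. Suspension replicate 2 was low, and the other 5 arrays lay between 11.73 and 11.92. The difference was 0.21 ± 0.17 (SE), with a 95% interval of -0.16 to 0.58 and a limma adjusted p of 0.690. It was 0.075 without suspension replicate 2.

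The gap between LEF1 and BCL11B, also picked after the values were seen, was larger in 3D. LEF1 minus BCL11B was 5.21, 5.54 and 6.12 in 3D, against 4.97, 4.81 and 5.13 in suspension. The change was 0.65 (exact permutation test, p = 0.1, the smallest possible), and the lowest 3D gap lay close to the highest suspension gap. Because the pair was picked from these same values, nothing is drawn from that p.

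SATB1 and TOX had the smallest differences and varied more between replicates than between groups. SATB1 measured 9.41, 8.99 and 8.98 in 3D, against 9.43, 8.91 and 9.14 in suspension, a difference of -0.036 ± 0.19 (SE) with a 95% interval of -0.46 to 0.39 and a limma adjusted p of 0.964. TOX measured 10.45, 9.64 and 9.53 in 3D, against 10.32, 9.84 and 9.79 in suspension, a difference of -0.11 ± 0.25 (SE) with a 95% interval of -0.66 to 0.45 and a limma adjusted p of 0.904. Both intervals include changes of either sign, so these arrays do not show that the genes stayed constant.

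**Figure D2:**
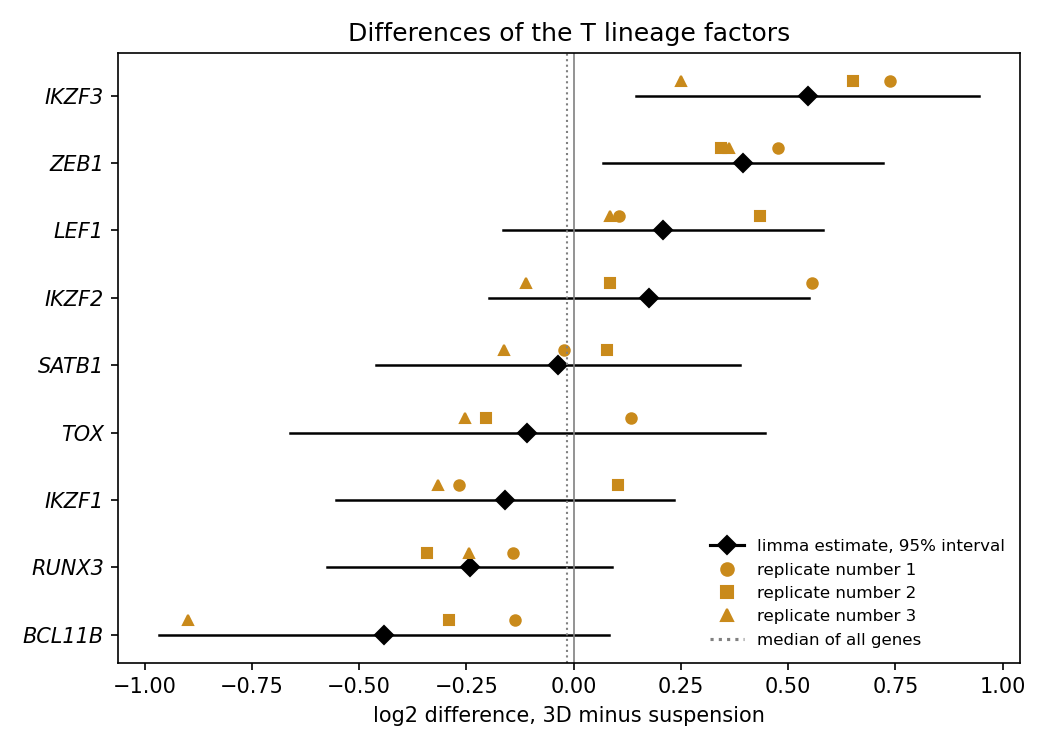
Log2 difference of each measured T lineage factor, 3D minus suspension, with the limma estimate and its 95% interval in black and the difference within each replicate number in orange. The intervals are not adjusted for the number of genes. Those of IKZF3 (0.55) and ZEB1 (0.39) lie above 0, with limma adjusted p of 0.405 and 0.433. The BCL11B estimate (-0.44) lies between -0.90 in replicate 3 and -0.14 in replicate 1.

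Several of these genes varied with the replicate number in both groups. Replicate 1 was the highest array of both groups for 6 of the 9, namely BCL11B, LEF1, SATB1, TOX, IKZF1 and IKZF3, a pattern noticed in the values and held by 21% of all genes. TOX showed it most clearly, with 10.45 in 3D replicate 1 and 10.32 in suspension replicate 1 and the other 4 arrays between 9.53 and 9.84. IKZF2 departed from this pattern, with replicate 1 highest in 3D and lowest in suspension, and so did RUNX3 and ZEB1. The direction was the same in all 3 replicate numbers for 5 of the 9 (BCL11B, LEF1, IKZF3, RUNX3 and ZEB1), beside 40.1% of all genes.

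**Figure D3:**
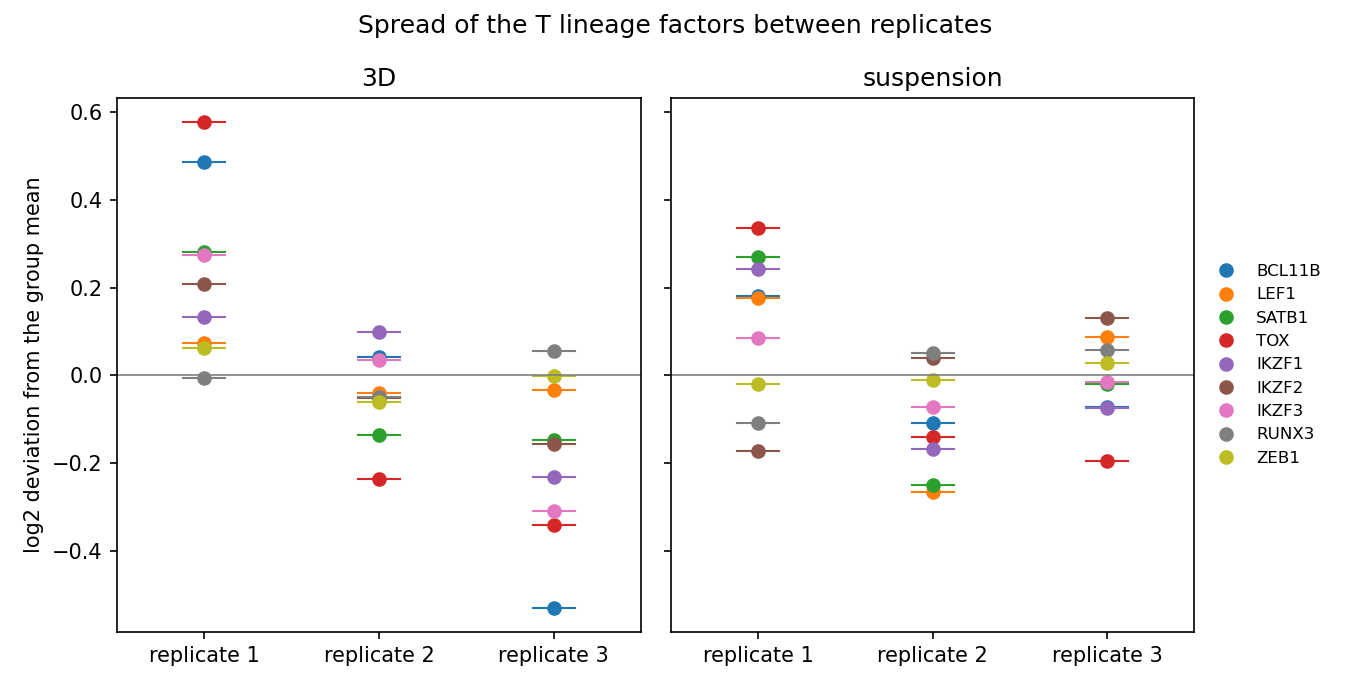
Deviation of each measured T lineage factor from its own group mean on the log2 scale, in 3D at left and suspension at right, by replicate number. Most genes lie above 0 in replicate 1 of both groups, with TOX farthest up, and BCL11B lies farthest down in 3D replicate 3.

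With the replicate number as a block, 0 of the 9 passed over all genes, where 0.0905% of all genes were called. IKZF3 had the smallest adjusted p of the 9 in that fit (limma, 0.126), followed by ZEB1 (0.201) and BCL11B (0.230). When the block was combined with a filter that kept the 8342 genes averaging at least 6, 3 of the 9 were called, beside 14.4% of the genes tested. In that setting ZEB1 rose in 3D (limma adjusted p 0.0495, with 10.6% of the genes tested called on the higher side) and BCL11B fell (0.0457, with 3.78% on the lower side). IKZF3 also passed (limma adjusted p 0.0121), but it reached the filter only through its 3D arrays and so had to differ, and nothing is drawn from that call. The spread there rested on 2 residual and 25.0 prior degrees of freedom, and the same 8342 genes gave 0 calls without the block. ZEB1 was called in none of the 3 runs that leave out a replicate number. BCL11B was called without replicate 1 and without replicate 2, where 5.49% and 17.5% of the genes tested were called, and not without replicate 3, where 4.87% were. IKZF3, with the limit just given, passed without replicate 2 and without replicate 3.

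Relatives of these genes were compared as a list of 12 measured paralogs and partners. The median difference was 0.089, with 9 higher and 3 lower, 0 called by limma and 1 of 12 at an unadjusted p under 0.05, beside 9.87% of all genes. That gene was IKZF4, which encodes the Ikaros relative Eos. It measured 4.29, 4.31 and 4.11 in 3D, against 3.78, 3.67 and 3.97 in suspension, without overlap, a difference of 0.42 ± 0.16 (SE; limma adjusted p 0.436). All its values were under 6, so whether it was expressed is uncertain. TCF7L2, a TCF family member averaging 5.79, had a difference of -0.29, CBFB, the partner of RUNX proteins, 0.16, and TOX4 -0.14.

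Other transcription factors of the T lineage had more lower than higher values. The median difference of 27 measured genes was -0.15, with 10 higher and 17 lower. Limma called 0. At an unadjusted p under 0.05 there were 0 higher and 2 lower of 27 (ID3 and NOTCH1), beside 5.9% and 3.97% of all genes. ID3, which blocks E proteins, measured 6.22, 6.37 and 5.75 in 3D, against 6.80, 6.62 and 6.57 in suspension, without overlap, a difference of -0.55 ± 0.19 (SE; limma adjusted p 0.412). ID2, of the same family, measured 7.02, 7.05 and 7.08 in 3D, against 7.35, 7.32 and 7.41 in suspension, also without overlap, a difference of -0.31 ± 0.15 (SE; limma adjusted p 0.518). ID1, of the same family and picked after its values were seen, was the third gene of the list without overlap, at -0.23. It averaged 5.84, under the level of 6, and 16.3% of all genes had groups apart. NOTCH1 had a difference of -0.42 and ZBTB17, which encodes the MYC partner MIZ1, -0.41, both with overlapping groups. The median by replicate number was 0.010, -0.17 and -0.27.

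Partners of TCF and LEF proteins and other WNT pathway genes went both ways. The median difference of 21 genes was -0.093, with 7 higher and 14 lower, 0 called by limma, and 1 higher and 1 lower of 21 at an unadjusted p under 0.05, beside 5.9% and 3.97% of all genes. GSK3A, a kinase that marks beta-catenin for decay, measured 8.07, 7.71 and 7.62 in 3D, against 8.33, 8.11 and 8.25 in suspension, a difference of -0.43 ± 0.17 (SE; limma adjusted p 0.478). FZD3, a WNT receptor, had a difference of 0.40, APC, a scaffold of the beta-catenin destruction complex, 0.42, and NKD1, a WNT feedback inhibitor, -0.32. All NKD1 values were under 6. The groups did not overlap for 4 of the 21, beside 16.3% of all genes: GSK3A, FZD3, NKD1 and TLE4, a Groucho corepressor picked after its values were seen, at 0.26.

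The NuRD and corepressor genes, the machinery that BCL11B and Ikaros proteins recruit, had a median difference of -0.018 over 18 measured genes. Of these 7 were higher and 11 lower, 0 were called by limma and 1, CTBP2, was lower at an unadjusted p under 0.05, beside 3.97% of all genes. CTBP2, a corepressor that binds ZEB1, measured 4.83, 4.52 and 4.16 in 3D, against 4.74, 5.17 and 5.34 in suspension, a difference of -0.58 ± 0.22 (SE; limma adjusted p 0.428) with overlapping groups and all values under 6. MBD3, a NuRD subunit, had -0.35 without overlap, SIN3B, also with all values under 6, -0.31 and CTBP1 -0.25. 

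Thymocyte and T cell genes had a median difference of -0.12 over 20 measured genes, with 8 higher and 12 lower and 0 called by limma. The array medians of the list ran from 6.28 to 6.55 in 3D and from 6.55 to 6.77 in suspension, with every 3D array lower and the closest arrays nearly equal. CD6, a T cell surface receptor and the 1 gene of the 20 at an unadjusted p under 0.05 (3.97% of all genes on the lower side), measured 6.43, 6.85 and 6.16 in 3D, against 6.93, 6.88 and 6.97 in suspension, a difference of -0.44 ± 0.19 (SE; limma adjusted p 0.496). CD5, an inhibitory receptor, had -0.30, LCK, the kinase of the CD4 and CD8 tails, -0.28, and PTCRA, the pre-T cell receptor alpha chain, -0.25. The 3D arrays lay below the suspension arrays for CD6, CD5 and PTCRA, 3 of the 20, beside 8.03% of all genes. All PTCRA values were under 6, and 9 of the 20 genes averaged under 6, which limits the list medians too. The 13 T cell markers share CD5, LCK and TRAT1 with this list. Their median difference was -0.11, with 4 higher, 9 lower and 0 called by limma. At an unadjusted p under 0.05 there were 0 higher and 1 lower of 13 (CD247), beside 5.9% and 3.97% of all genes. Every 3D array lay below every suspension array for CD247, CD3D and CD5, 3 of the 13, beside 8.03% of all genes. The reverse held for 0 of the 13, beside 8.28%. The lowest was CD247 at -0.52 (limma adjusted p 0.380) and the highest SH2D1A at 0.19. Among the CD3 chains, CD3D stood at -0.31 (limma adjusted p 0.546). The differences of CD3E (-0.076 ± 0.17 SE) and CD3G (0.034 ± 0.20 SE) were smaller than their SE.

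**Figure D4:**
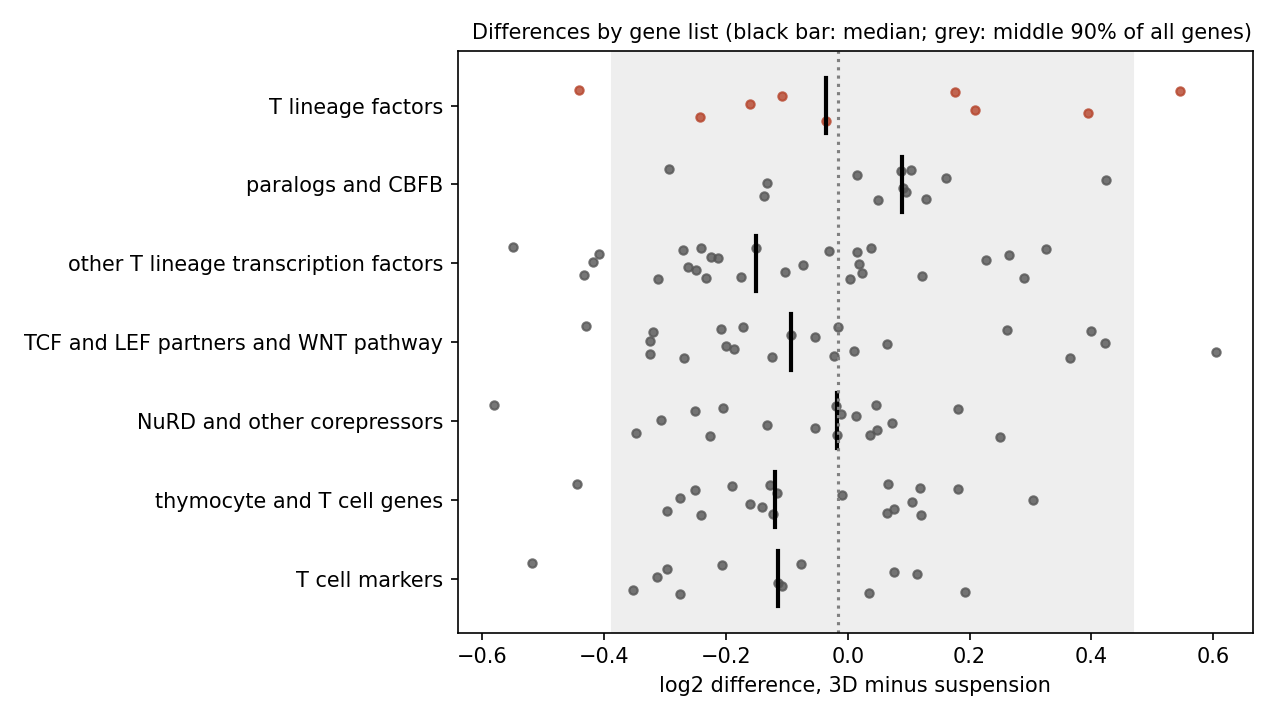
Log2 differences, 3D minus suspension, of single genes (points) in each list, with list medians as black bars, the median of all genes dotted and the middle 90% of all genes (-0.39 to 0.47) in grey. Of the 9 T lineage factors, IKZF3 lies above and BCL11B below the grey band.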

How the data were processed

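The 6 arrays were read from the authors' deposited table, which holds log2 expression per probe set and array. The log2 values come from RMA and the Transcriptome Analysis Console, per the submitters' processing notes; versions and genome build are not given in the sources used here. The method corrects background, equalises the arrays' distributions and combines the probes of each set, which shrinks differences of dim probe sets. No detection calls were used, and arrays carry no read depth, so their number limits the precision. The table held 0 further columns of per-sample values.

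Of 21448 probe sets, 17709 had 1 gene symbol in the platform's gene table, 0 had several and 3739 had none. All symbols were checked by gene identifier against the RefSeq table of assembly GRCh38.p14, and 0 needed an update. Where a gene had several probe sets the brightest on average was kept, leaving 17687 genes. TCF7 was not analysed here, because the gene table pairs none of its listed probe sets with that symbol.

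Sample titles gave the groups and replicate numbers. The test was limma 3.58.1 in R 4.3.3 (lmFit and eBayes, two-sided, no block, no filter), adjusted by Benjamini-Hochberg over the 17687 genes at a threshold of 0.05, with 4 residual degrees of freedom and 6.79 from the prior. Exact permutation tests over the 6 arrays were two-sided. The functions were tested on simulated data whose changes exceeded those of the T lineage factors and which held no replicate effect. That test does not cover differences of the size reported here or an effect of replicate number. Plots used matplotlib 3.10.9 under Python 3.11.15.

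Between arrays of one number, deviations from the group means correlated at 0.521, 0.120 and 0.337 for replicate numbers 1, 2 and 3. All were over 0.1, so equal numbers were treated as pairs in the alternative fits with a block. The main test did not pair them. Suspension replicate 2 correlated better with 3D replicate 3 (0.230) than with its own number, so the basis is weak. The fit with the replicate number as a block had 2 residual degrees of freedom and 9.78 from the prior.

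The genes and lists were chosen with earlier results of these data known. All measured T lineage factors are named. From each further list up to 4 genes of smallest p are named. The markers SH2D1A, CD3E, CD3G and COL1A2 are named besides, for their level, their difference or as CD3 chains. For BCL11B and LEF1 the 3 genes of closest profile are named among those with a mean of at least 6. PYGO1, LRP5, TLE4, ID1, THY1 and NKG7 and the within-array comparisons were picked after their values were seen.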

Additional observations from a re-analysis of the deposited data

How the results depend on the processing

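Without the replicate block, every setting tried gave 0 calls over all genes, over the T lineage factors and over the 5 other lists. With the block over all genes the count was 16 over all genes, and 21, 150 and 36 without replicates 1, 2 and 3. For the T lineage factors it was 0 throughout, and for the other lists it ran from 0 to 1, the 1 being PYGO1, a WNT coactivator, without replicate 2. With the block and the filter on dim genes the count was 1199 of 8342 genes (14.4%). Beside that share, 3 of the 9 T lineage factors and 6 genes of the other lists were called. These 5 lists hold 12, 27, 21, 18 and 20 measured genes, of which 6, 10, 5, 2 and 9 averaged under 6. In them ID3, GSK3A and CD6 were called lower and APC higher, and NOTCH1 (lower) and PYGO1 (higher) also passed. Runs with 1 replicate number left out were added after seeing the data. Without replicates 1, 2 and 3 the counts were 458, 1457 and 406 of the 8342 genes (5.49%, 17.5% and 4.87%). The T lineage factors gave from 1 to 2 calls and the other lists from 0 to 8, the most without replicate 2. Without replicate 2 and without replicate 3 the spread was shared wholly between genes, and without replicate 1 it had 43.0 prior degrees of freedom. The 1 call of the other lists without replicate 1 was LRP5. IKZF3 and PYGO1 reached the filter only through their 3D arrays, and NOTCH1 and LRP5 only through their suspension arrays. Calls of these genes therefore support nothing. The directions of 6 of the 9 T lineage factors held in every setting. With single arrays left out the difference of SATB1 ran from -0.18 to 0.099 and that of TOX from -0.40 to 0.062, both above 0 without 3D replicate 2, 3D replicate 3 or suspension replicate 1. SATB1 was 0.027 with the block without replicate 3, and IKZF2 -0.013 with the block without replicate 1, with and without the filter. Without the block the adjusted p of IKZF3 ran from 0.328 to 0.781, that of ZEB1 from 0.330 to 0.819 and that of BCL11B from 0.335 to 0.941. The causes were not tested. The pairing has a weak basis, and dim probe sets limit what can be measured. Of the 9, IKZF3, RUNX3 and BCL11B lay nearest to the level of 6, with means of 6.04, 6.43 and 6.45.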

Other observations

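The genes whose profile over the 6 arrays lay closest to those of BCL11B and LEF1 were found by the root mean square difference between centred log2 values. For BCL11B these were RPP21 (0.045), SPINDOC (0.077) and CCDC124 (0.081), with differences between the groups of -0.44, -0.49 and -0.35. For LEF1 they were MRRF (0.031), NREP (0.034) and SEC22B (0.040), with differences of 0.20, 0.21 and 0.23. These are descriptions over 6 arrays, and with many genes compared some profiles lie close by number alone.

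The T lineage factors are long genes, and over all genes the median difference between the groups was higher in classes of longer span. By RefSeq spans of assembly GRCh38.p14, with the genes in 5 classes of equal number by span, 8 of the 9 belong to the longest class, whose median difference was 0.062, against -0.088 in the shortest. RUNX3, with a span of 65.6 kb, belongs to the next longest class, with a median of 0.050. Set against the median of its own class, IKZF3 (107 kb) stood 0.48 higher, ZEB1 (211 kb) 0.33, LEF1 (121 kb) 0.15 and IKZF2 (153 kb) 0.11 higher. BCL11B (103 kb) stood at -0.50, RUNX3 at -0.29, IKZF1 (102 kb) at -0.22, TOX (314 kb) at -0.17 and SATB1 (100.2 kb) at -0.098 relative to their classes. The part of span in these differences was not tested.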
